A study of Mus musculus with 12 samples.

Results

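The 9 rod phototransduction genes described here, Gnat1, Gnb1, Gngt1, Pde6a, Pde6b, Pde6g, Cnga1, Sag and Pdc, were followed in mouse retina 3 days after a transient rise of intraocular pressure (IOP). They were taken by name as the 9 rows for these symbols among the 24340 rows of the expression table. The list was drawn up with earlier results of these data known. RNA came from both retinas of 6 p16-3MR mice aged 12 to 16 weeks. These mice carry a fusion of Renilla luciferase, a red fluorescent protein and a viral thymidine kinase under the p16Ink4a regulatory region, so that ganciclovir (GCV) is toxic to cells in which this region is active, and every group, controls included, carried the transgene. In each mouse 1 eye was held at 85 to 90 mm Hg for 60 min by saline infusion, and the other eye was the control. Mice 3, 4 and 6 belonged to the sham-treated arm, for which the labels name PBS (groups ctrl and IOP), and mice 1, 2 and 5 received GCV at 25 mg/kg once a day (groups ctrl-GCV and IOP-GCV), with 3 retinas per group. The 2 retinas of a mouse are therefore a true pair, and a whole retina was sequenced, so fewer rods and less RNA per rod cannot be told apart in any value below.

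Rods detect light through a G protein cascade. Light-activated visual pigment switches on transducin, built of an alpha (Gnat1), a beta (Gnb1) and a gamma subunit (Gngt1). Transducin alpha releases the catalytic phosphodiesterase subunits (Pde6a and Pde6b) from their inhibitory gamma subunit (Pde6g), the enzyme breaks down cGMP, and the cGMP-gated channel, whose alpha subunit is Cnga1, closes. Arrestin (Sag) caps the phosphorylated pigment and ends its signal, and phosducin (Pdc) binds the beta and gamma subunits of transducin. Rods make up most cells of the mouse retina, and Crx and Nrl are transcription factors that drive many rod genes. On GRCm38 the genes lie on chromosomes 9 (Gnat1), 4 (Gnb1), 6 (Gngt1), 18 (Pde6a), 5 (Pde6b and Cnga1), 11 (Pde6g) and 1 (Sag and Pdc).

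The members were among the most abundant transcripts of these retinas. In the 6 control retinas, levels in FPKM (fragments per kilobase of exon, relative to library size) fell in the order Gnat1, Pdc, Gngt1, Sag, Pde6g, Gnb1, Pde6b, Pde6a and Cnga1. The median was 15058 FPKM for Gnat1 (12336 to 18196) and 593 FPKM for Cnga1 (468 to 678). By their control medians the members ranked between 2 and 59 among all genes. Each member stood above the next in all 6 control retinas, with the exception of Sag and Pde6g, where Sag was higher in 3 of 6. The ranges of Pdc and Gngt1, of Gngt1 and Sag, of Sag and Pde6g, and of Pde6b and Pde6a overlapped. The 9 genes together made up between 8.34% and 11.1% of the summed FPKM of a control retina, and between 7.22% and 11.9% of an IOP retina. The photoreceptor transcription factors Crx and Nrl averaged 622 and 769 FPKM over the 12 libraries.

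The upstream sequences of 3 members are shown: that of Sag, which was higher in the IOP retina of all 6 mice, that of Pde6b, one of 3 members whose values in the IOP group lay wholly below ctrl, and that of Pdc, the member with the widest spread in the IOP group. Of all genes, 10.7% were higher in the IOP retina of all 6 mice, and 8.81% lay wholly below ctrl in the IOP group. The sequences are the 250 bases before the RefSeq gene start on GRCm38.p6, all on the plus strand, at chr1:87803430-87803679 for Sag, chr5:108388123-108388372 for Pde6b and chr1:150319167-150319416 for Pdc. Capitals mark a CRX core (TAATCC, or GGATTA when read on the other strand) or an NRL half-site (TGCTGA, or TCAGCA on the other strand).
Sag: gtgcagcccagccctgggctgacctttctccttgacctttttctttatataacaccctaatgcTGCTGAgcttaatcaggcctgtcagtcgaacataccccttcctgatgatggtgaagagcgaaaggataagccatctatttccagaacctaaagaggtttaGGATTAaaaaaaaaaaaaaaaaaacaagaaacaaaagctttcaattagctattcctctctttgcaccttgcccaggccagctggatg
Pde6b: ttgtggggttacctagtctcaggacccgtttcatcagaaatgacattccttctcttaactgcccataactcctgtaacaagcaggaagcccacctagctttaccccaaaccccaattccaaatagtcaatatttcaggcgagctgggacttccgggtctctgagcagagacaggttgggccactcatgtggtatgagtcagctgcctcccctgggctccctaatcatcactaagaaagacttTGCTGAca
Pdc: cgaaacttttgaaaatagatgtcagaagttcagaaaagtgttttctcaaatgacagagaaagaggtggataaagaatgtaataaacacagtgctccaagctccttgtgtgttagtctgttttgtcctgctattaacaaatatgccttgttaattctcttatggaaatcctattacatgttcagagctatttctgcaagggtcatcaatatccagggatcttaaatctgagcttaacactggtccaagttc
Promoter sequences from RefSeq, 250 bases before to 50 after the gene start, were found for 6 of the 9 members, and those of Gnat1, Pde6a and Pde6g were not analysed here. The CRX core was present in 3 of the 6 (Cnga1, Gngt1 and Sag), against 7.06% of 32851 mouse promoters of this length. The NRL half-site was present in 2 of the 6 (Pde6b and Sag), against 19.5%. Of the 6 windows, that of Sag held both. A site for STAT factors (TTCNNNGAA, the same on both strands) was in 0 of the 6, against 8.3%. These matches describe the letters of the windows and were not tested for binding.

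The first question was what IOP elevation did to the cascade. Sag was higher in the IOP retina than in the control retina of every mouse, by 1.38-fold over the 6 mice. The 95% interval of its log2 fold change of 0.46 was -0.65 to 1.58 in the fit with a variance trend and 0.19 to 0.74 in the fit without it, both described below. Sag was singled out after its values were seen. The other 8 members were all lower in the IOP retina of mice 3, 4, 1 and 5, all higher in that of mouse 2, and split 5 higher to 3 lower in mouse 6.

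Arrestin levels were as follows. Without GCV, Sag stood at 5756, 4872 and 4574 FPKM in the control retinas of mice 3, 4 and 6, and at 8251, 5041 and 6870 FPKM in their IOP retinas. With GCV, it stood at 5185, 4478 and 4186 FPKM in the control retinas of mice 1, 2 and 5, and at 6028, 7240 and 6856 FPKM in their IOP retinas. The ranges overlapped without GCV, through the IOP retina of mouse 4, and did not overlap with GCV. The means were 5067 ± 615 and 6721 ± 1610 FPKM (SD, n = 3) without GCV and 4616 ± 513 and 6708 ± 620 FPKM (SD, n = 3) with GCV. Within mice 3, 4, 6, 1, 2 and 5 the log2 differences were 0.52, 0.05, 0.59, 0.22, 0.69 and 0.71, a mean of 0.46 ± 0.27 (SD), with p = 0.03125 in an exact two-sided sign-flip test, which is the smallest p that 6 pairs can give. The same test, run for each of the 9 members, gave p between 0.0625 and 0.9688 for the other 8. A rise in all 6 mice was seen for 10.7% of all genes, and for 11.3% of the 679 genes that averaged 100 FPKM or more, so 1 of 9 members is close to the background share.

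The fit across all genes gave different answers for Sag with and without a variance trend. In limma on log2(FPKM + 1), with a trend of the spread on the mean level, none of the 9 members was called at an adjusted p of 0.05 in any of the 6 comparisons, and none had an unadjusted p under 0.05. The shares of all genes called were 1.65% for IOP without GCV, 1.8% for IOP with GCV and 12.2% for IOP over all 6 mice, and 18.9%, 19.2% and 30.3% had an unadjusted p under 0.05. At the level of these very abundant genes, however, the trend expected a spread of 0.35 to 3.85 log2 units, while the members' own residual spread was 0.21 to 0.65 log2 units. In Gnat1 the expected spread was 3.85 against 0.31 observed, and in Sag it was 1.80 against 0.22. The fit without the trend is therefore given beside it. It expected 0.16 for every gene, below the residual spread of each member, so its errors may be too small for them. Standard errors and intervals of the single members are from the fit without the trend unless stated, and with the trend the errors over the 6 mice were 0.15 (Cnga1) to 1.06 (Gnat1) and every interval included 0. In that fit Sag was the 1 member called over the 6 mice, with a log2 fold change of 0.46 (SE 0.12), an adjusted p of 0.04146 without the trend and 0.5753 with it. The share of all genes called in that fit was 12.4%, and 6.94% were called higher. For IOP without and with GCV, taken alone, 0 of 9 members were called without the trend, beside 1.53% and 1.85% of all genes. With the mouse as a block the adjusted p of Sag was 0.0613, and with 1 library left out it ran from 0.004967 (without the IOP retina of mouse 4) to 0.09875, with 2 of the 12 such fits calling it. The estimates themselves lay between 0.38 and 0.56.

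Transducin showed no call. Gnat1 stood at 18196, 14014 and 16101 FPKM in the ctrl retinas of mice 3, 4 and 6 and at 13072, 9572 and 17057 FPKM in their IOP retinas. It stood at 17212, 12336 and 13465 FPKM in the ctrl-GCV retinas of mice 1, 2 and 5 and at 12565, 15700 and 9853 FPKM in their IOP-GCV retinas. The ranges overlapped in both arms, and the difference of -0.25 (SE 0.17) over the 6 mice had an adjusted p of 0.354 without the trend. For the beta subunit Gnb1, ctrl retinas held 3424, 2835 and 3197 FPKM and IOP retinas 2545, 1829 and 2630 FPKM. With GCV, Gnb1 stood at 3165, 2474 and 2635 FPKM in control retinas and at 2421, 2886 and 1871 FPKM in IOP retinas. The groups were apart without GCV and overlapped with it, and 5 of 6 mice had less Gnb1 in the IOP retina. Over the 6 mice the log2 fold change of Gnb1 was -0.33 (SE 0.13), with an adjusted p of 0.1225 without the trend. The gamma subunit Gngt1 was at 6471, 5175 and 4979 FPKM in ctrl and at 4668, 4310 and 10664 FPKM in IOP retinas, and at 5923, 4625 and 5644 FPKM in ctrl-GCV and 4818, 5575 and 4502 FPKM in IOP-GCV retinas. The IOP retina of mouse 6 held more than 1.5 times as much Gngt1 as any other library. The ratio of Gnb1 to Gnat1 in FPKM was narrow, at 0.184 to 0.202 in control retinas and 0.184 to 0.195 in 5 IOP retinas, and was 0.154 in the IOP retina of mouse 6.

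Of the phosphodiesterase genes, the inhibitory subunit Pde6g had the lowest fold change over the 6 mice. It was at 5897, 4473 and 5079 FPKM in ctrl and at 4458, 2931 and 2650 FPKM in IOP retinas, which did not overlap, the highest IOP value lying just under the lowest control value. With GCV it was at 4961, 4265 and 4283 FPKM in control and at 4042, 4997 and 2887 FPKM in IOP retinas, which did. The log2 fold change was -0.43 (SE 0.16), or 0.742-fold (0.575 to 0.957), with an adjusted p of 0.108 without the trend. With the trend the SE was 0.41, the interval on the log2 scale -1.34 to 0.48 and the adjusted p 0.5211. The catalytic subunit Pde6b was at 1573, 1314 and 1314 FPKM in ctrl and at 1210, 913 and 1009 FPKM in IOP retinas, again apart, and at 1345, 1137 and 1264 FPKM in ctrl-GCV and 1158, 1413 and 930 FPKM in IOP-GCV retinas, overlapping. Its log2 fold change was -0.27, with an adjusted p of 0.1433 without the trend. Pde6a, which pairs with Pde6b in the rod enzyme, was at 1446, 1146 and 1277 FPKM in ctrl and at 1039, 833 and 2493 FPKM in IOP retinas, and at 1308, 949 and 1096 FPKM in ctrl-GCV and 991, 1074 and 915 FPKM in IOP-GCV retinas. Pde6a ran between 0.835 and 0.973 times Pde6b in control retinas and between 0.761 and 0.984 times in 5 IOP retinas. In the IOP retina of mouse 6 this ratio was 2.47. Over the 6 mice the fold of Pde6a was 0.949 (95% interval 0.658 to 1.37).

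The channel subunit Cnga1 was at 678, 574 and 570 FPKM in ctrl and at 577, 516 and 807 FPKM in IOP retinas, and at 624, 468 and 612 FPKM in ctrl-GCV and 557, 674 and 529 FPKM in IOP-GCV retinas. These groups overlapped, and the fold over the 6 mice was 1.03 (0.845 to 1.26). Phosducin varied most. Pdc was at 8258, 7347 and 6987 FPKM in ctrl and at 5186, 4204 and 19061 FPKM in IOP retinas, and at 8650, 5600 and 6758 FPKM in ctrl-GCV and 5411, 6770 and 3693 FPKM in IOP-GCV retinas. Its coefficient of variation was 87.6% in the IOP group and 8.69% in ctrl. Without the IOP retina of mouse 6 the log2 fold change of Pdc over the remaining libraries moved from -0.22 to -0.56 (SE 0.17), with an adjusted p of 0.07204 without the trend.

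**Figure D1:**
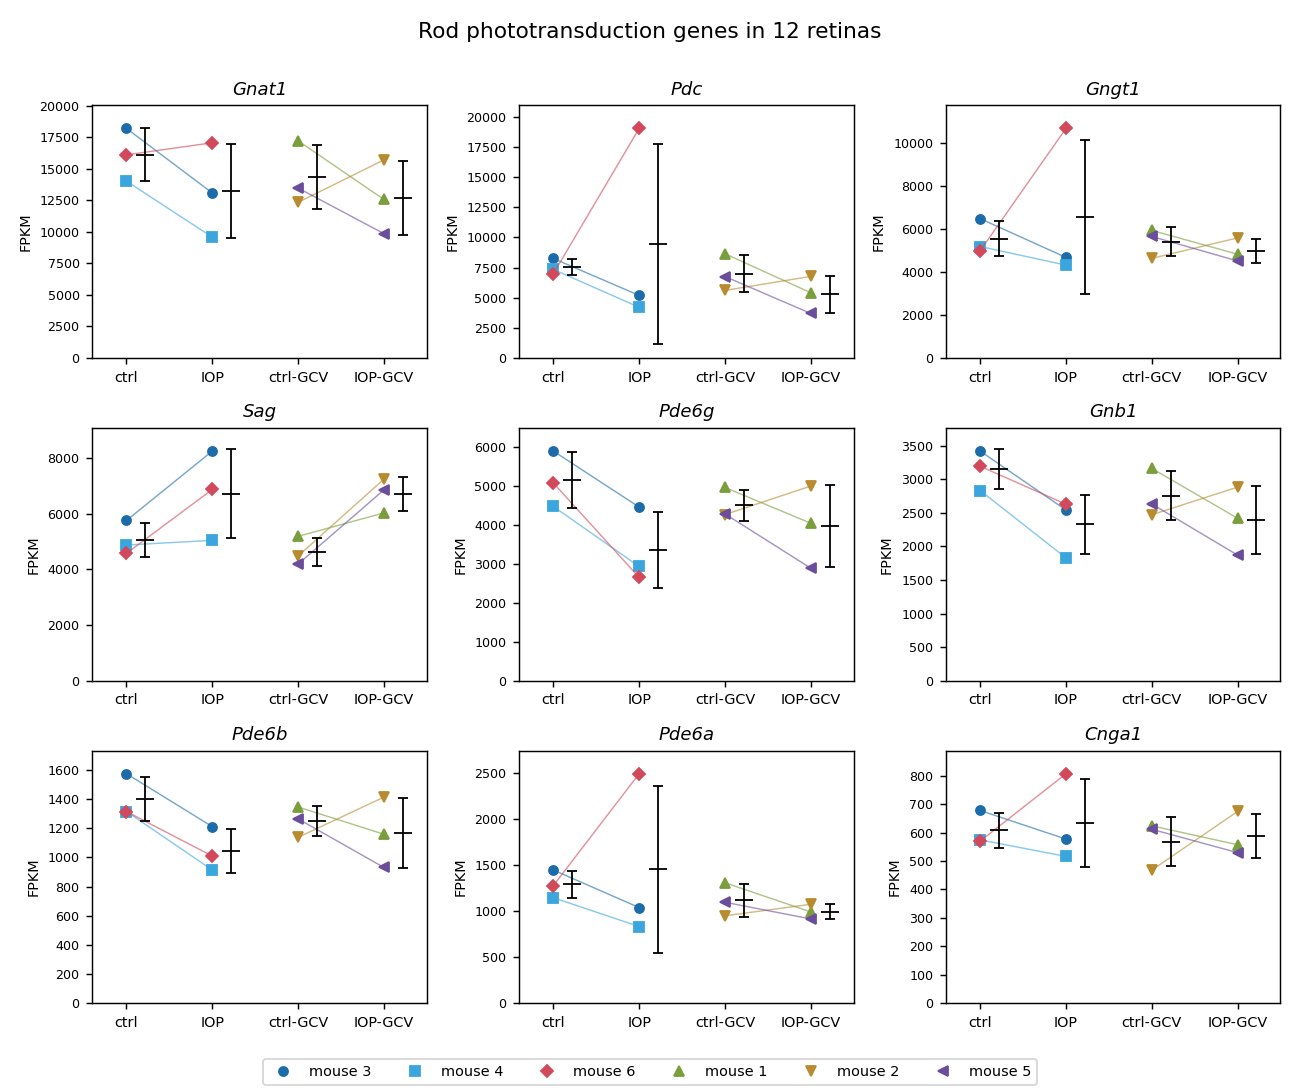
FPKM of the 9 rod phototransduction genes in the 12 retinas, 1 panel per gene with its own linear axis from 0, with thin lines joining the retinas of 1 mouse and black bars giving mean and SD of 3 retinas. In all 6 mice Sag is higher in the IOP retina. The IOP retina of mouse 6 (red diamonds) stands at 19061 FPKM for Pdc and 10664 FPKM for Gngt1.

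Counted over the list, 3 of 9 members (Gnb1, Pde6b and Pde6g) lay wholly below their controls in the IOP group without GCV, where 8.81% of all genes did, and 0 of 9 lay wholly above, where 11.7% did. With GCV, 1 of 9 (Sag) lay wholly above, where 14.5% of all genes did, and 0 of 9 wholly below, where 15.3% did. Over the 6 mice without the trend, 4 members had an unadjusted p under 0.05 (Gnb1, Pde6b and Pde6g lower, Sag higher), beside 30.7% of all genes. Taken alone, IOP without GCV gave 3 such members (Gnb1, Pde6b and Pde6g, all lower), beside 19.2% of all genes, and IOP with GCV gave 1 (Sag, higher), beside 19.6%. The median log2 fold change of the 9 members was -0.01 without GCV, -0.16 with GCV and -0.22 over the 6 mice, beside medians of 0 to 0.01 over all genes tested. These medians depended on single libraries. Without GCV, leaving out the IOP library of mouse 6 gave a median of -0.46, leaving out that of mouse 3 gave 0.09, leaving out that of mouse 4 gave 0.17, and array weights gave -0.37. With GCV, leaving out the IOP library of mouse 5 gave -0.02, that of mouse 2 gave -0.26, and leaving out the control library of mouse 1 gave -0.05. Over the 6 mice, leaving out the IOP library of mouse 4 gave -0.01, that of mouse 3 gave -0.09, and that of mouse 2 gave -0.32.

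Within mice, the 8 members other than Sag kept 1 direction in 5 of 6 mice. Their log2 differences ran from -0.67 to -0.23 in mouse 3, from -0.81 to -0.15 in mouse 4, from -0.68 to -0.16 in mouse 1 and from -0.87 to -0.21 in mouse 5. In each of these 4 mice Pdc was the lowest and Cnga1 the highest of the 8. In mouse 2 the 8 ran from 0.18 (Pde6a) to 0.53 (Cnga1). Mouse 6 spread over 2.39 log2 units, from -0.94 for Pde6g to 1.45 for Pdc. Sag exceeded the median of the other 8 in each mouse, by 0.97, 0.59, 0.30, 0.56, 0.42 and 1.16 in mice 3, 4, 6, 1, 2 and 5, although in mouse 6 it lay below Pdc, Gngt1 and Pde6a. That gap averaged 0.67 ± 0.33 (SD, n = 6). The comparison was chosen after the values of Sag had been seen, so it is a description and no p is given. The ratio of Sag to Gnat1 was 0.284 to 0.363 in control retinas, 0.461 to 0.696 in 5 IOP retinas and 0.403 in the IOP retina of mouse 6.

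**Figure D2:**
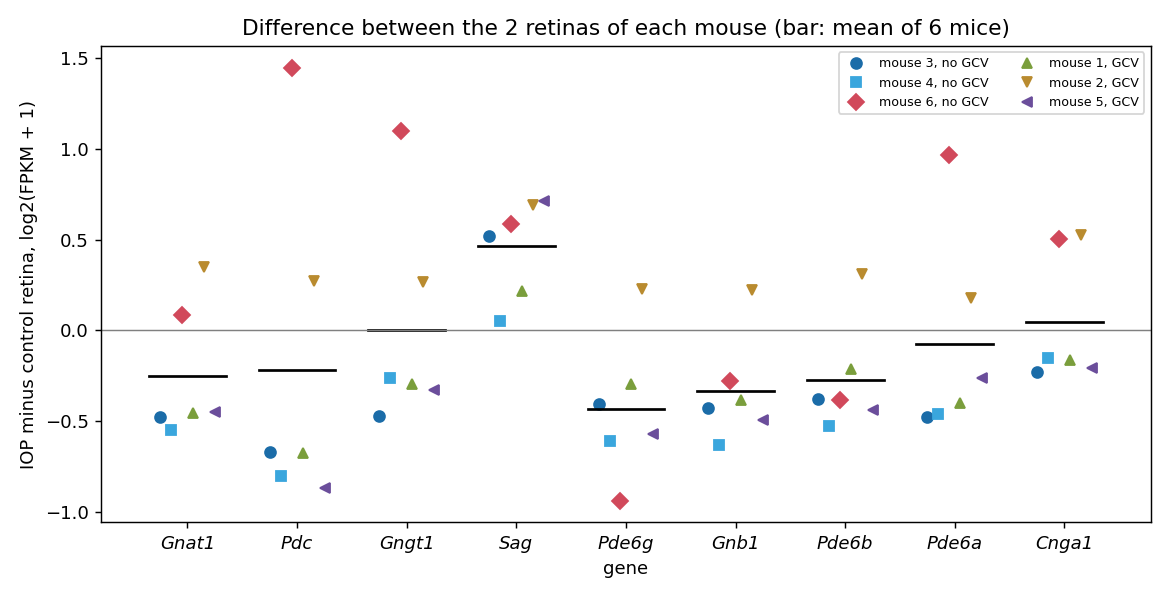
Difference in log2(FPKM + 1) between the IOP and the control retina of each mouse for the 9 genes, ordered by control level, with a bar at the mean of 6 mice. All 6 points of Sag lie above 0, those of the other genes lie below 0 in mice 3, 4, 1 and 5 and above 0 in mouse 2, and mouse 6 runs from -0.94 to 1.45.

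The IOP library of mouse 6 stood apart in other respects. It detected 14844 genes, where the remaining 11 libraries detected 16044 to 16593, and rested on an estimated 4010000 fragments, where they rested on 6830000 to 9060000. Its difference from the control retina followed GC content across 11982 genes: with genes split by GC content into 5 equal bins, the median log2 difference was 0.27 in the lowest bin and -0.39 in the highest. The Spearman correlation was -0.3 in mouse 6 and between -0.11 and 0.14 in the other 5 mice. Among the 9 members it was -0.7 in mouse 6. Gngt1 (35.8% GC), Pdc (40.9%) and Cnga1 (42.6%) were up in this library, and Pde6g (55.8%), the member highest in GC, was furthest down. Sag (52.6%) and Gnat1 (54.0%) were also up, at 0.59 and 0.08 on the log2 scale, and Gnb1 (48.1%) was at -0.28. Pde6a (49.3%) and Pde6b (49.7%) went apart, at 0.96 and -0.38 on the log2 scale, with nearly equal GC content. The part of GC content or depth in these values was not tested. With this library left out and the control retina of mouse 6 kept, the log2 fold changes over the remaining 11 libraries, without the trend, were -0.35 for Gnat1, -0.38 for Gnb1, -0.21 for Gngt1, -0.31 for Pde6a, -0.26 for Pde6b, -0.36 for Pde6g, -0.05 for Cnga1 and 0.45 for Sag. None of these 8 was called, with adjusted p of 0.06815 for Sag and 0.09179 for Pde6a.

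**Figure D3:**
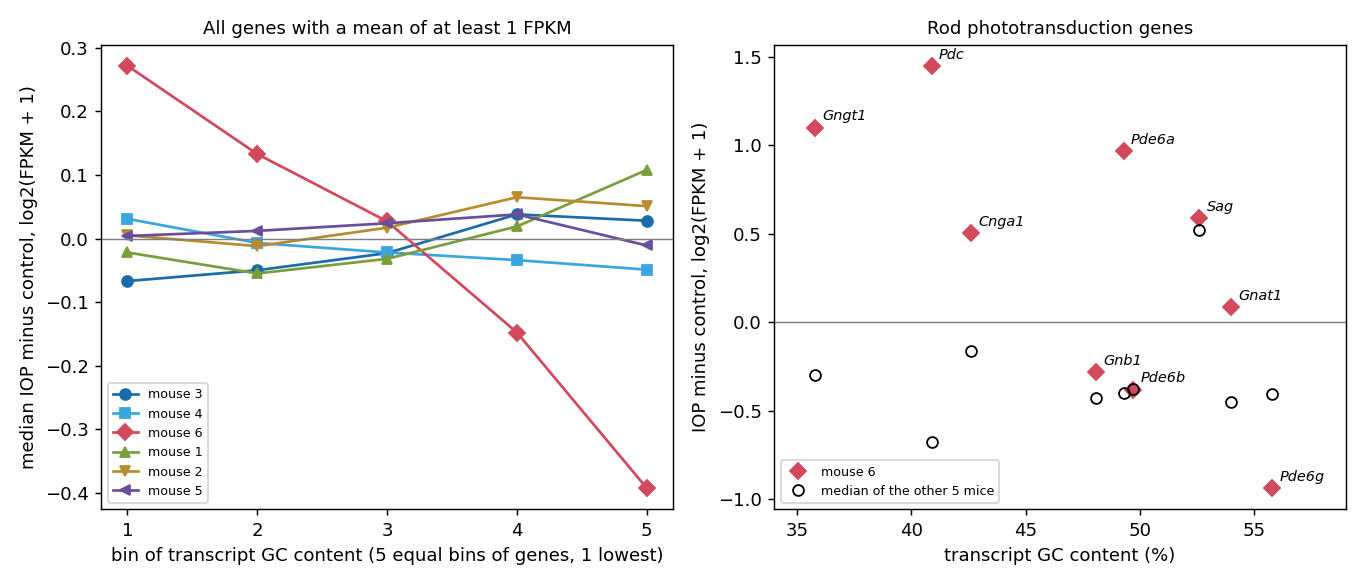
Left, median IOP minus control difference in log2(FPKM + 1) in 5 equal bins of transcript GC content for each mouse. Right, the same difference for the 9 rod genes against their GC content in percent, in mouse 6 (red diamonds) and as the median of the other 5 mice (open circles). Mouse 6 runs from 0.27 in the lowest bin to -0.39 in the highest, and the other 5 mice stay between -0.07 and 0.11.

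The second question was whether GCV changed these genes. The difference between the IOP effects with and without GCV was called for 0 of 9 members and for 0% of all genes in limma with the trend, where 1.93% of all genes and none of the members had an unadjusted p under 0.05. Without the trend the counts of calls were again 0, and no member had an unadjusted p under 0.05, beside 2.01% of all genes. The intervals are wide: for Sag the difference was 0.16 (95% interval -0.40 to 0.71), and for Pde6g 0.44 (-0.30 to 1.17), on the log2 scale and without the trend. In control retinas all 9 members had lower estimates with GCV than without, from -0.21 to -0.04, with 0 calls. These estimates compare 3 mice with 3 other mice, and none of the 9 members had groups that did not overlap, where 5.14% of all genes were lower and 6.01% higher without overlap. None of the members had an unadjusted p under 0.05 there, beside 1.59% of all genes with the trend and 1.68% without it. In IOP retinas, 4 members had higher and 5 lower estimates with GCV, from -0.54 for Pdc to 0.25 for Pde6g, with 0 calls. There 0% of all genes were called. An unadjusted p under 0.05 was found for none of the members, and for 4.18% of all genes with the trend and 4.52% without it. No member had IOP-GCV values wholly above or below the IOP values, where 2.68% and 2.07% of all genes did.

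Across the 12 libraries, Sag did not follow the other members. Pearson correlations of log2 values between pairs of the 8 other members had a median of 0.71 and a lowest value of -0.154, and without the IOP retina of mouse 6 a median of 0.884 and a lowest value of 0.668. Sag correlated with the 8 at a median of 0.025, and at -0.099 without that library. All members share these libraries and their scaling, and the values are a description. The genes most like the mean of the 9 members, among 6733 genes that averaged 10 FPKM or more, were Ap2a2 (r = 0.96 over 12 libraries), Grtp1 (0.957), Rtbdn (0.957), Crx (0.956) and Reep6 (0.956). With 11 libraries, leaving out the IOP retina of mouse 6, these correlations were 0.943 to 0.957.

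Other rod genes were read beside the members. Of 14 genes for recovery, cGMP synthesis and calcium handling in rods, 0 were called over the 6 mice with or without the trend, 12 had negative estimates, and the median was -0.23. One of the 2 most abundant of this list, Unc119, a carrier of transducin alpha, had a log2 fold change of -0.31 (SE 0.29 with the trend and 0.16 without it). Of 10 genes for the outer segment and rod identity, 0 were called with the trend, 7 had negative estimates and the median was -0.18. Without the trend 1 was called, the outer segment transporter Abca4 at -0.47 (SE 0.13, adjusted p = 0.04919, against 0.05056 with the trend), named after its values were seen. The most abundant, the disc rim proteins Prph2 and Rom1, were at -0.48 and -0.22, with SE of 0.32 and 0.31 with the trend and 0.18 and 0.16 without it. The medians of these lists were also positive in mouse 2 (0.20 and 0.29) and negative in mice 3, 4, 1 and 5, as for the members. The pattern was not confined to rod genes. Medians of the cone phototransduction genes were -0.34, -0.60, -0.37 and -0.31 in mice 3, 4, 1 and 5, and 0.295 in mouse 2.

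Among the 10 cone phototransduction genes, 1 was called higher and 1 called lower, beside 6.76% and 5.44% of all genes. Estimates were negative for 7 of the 10. The cone transducin beta subunit Gnb3, which ON bipolar cells also use, rose by a log2 fold change of 1.27 (SE 0.16, adjusted p = 0.001485), and the cone arrestin Arr3 decreased by 1.28 (SE 0.23, adjusted p = 0.009113). These are the cone counterparts of Gnb1 and Sag, whose estimates had the opposite sign. The cone counterparts Gnat2 (-0.48) and Pde6h (-0.15) had the same sign as Gnat1 and Pde6g. Gngt2 (0.02), Pde6c (0.03) and Cnga3 (-0.01) were near 0, where Pde6c had the opposite sign to Pde6a and Pde6b, and Cnga3 to Cnga1, and the differences between rod and cone genes were not tested.

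Markers of other cells moved with IOP as well, and their part in the values of the rod genes was not tested. All 6 genes of reactive glia and photoreceptor stress rose (median 3.18), and those with the smallest adjusted p were Edn2 at 3.81, Osmr at 1.56 and Fgf2 at 2.99 on the log2 scale. All 12 microglia and leukocyte markers had positive estimates (median 2.28), and 10 were called. The smallest adjusted p were those of C1qa (2.52), Ccr2 (2.39) and Aif1 (2.18). The summed level of the 12 markers was 31.0 to 83.5 FPKM in control and 255.3 to 2693 FPKM in IOP retinas. All 6 retinal ganglion cell markers had negative estimates (median -1.23), and 5 were called, among them Nefl at -1.70, Pou4f1 at -1.27 and Thy1 at -1.39. With the mouse as a block 1 of these 6 was called, and with 1 library left out between 0 and 6 were called. In mouse 4 the median of the ganglion cell markers was 0.07, although all 8 rod members other than Sag were lower in its IOP retina. All 6 Mueller glia markers had negative estimates, and 2 were called, Glul (-1.28) and Rlbp1 (-0.65). With the mouse as a block 1 was called, and with 1 library left out between 0 (without the ctrl retina of mouse 4) and 3. Of 6 bipolar cell markers 0 were called, although all 6 had negative estimates, and the most abundant, Pcp2, was at -0.61.

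Markers named for lens, pigment epithelium and blood varied between libraries, and the source of their RNA was not tested. All 6 lens markers had positive estimates (median 2.78), and 4 were called with the trend and 3 without it. The smallest adjusted p were those of Bfsp2, Bfsp1 and Crygs, and with 1 library left out between 0 and 5 markers were called. The summed level of the 6 lens markers was 3.76 to 20.0 FPKM in ctrl, 44.9 to 2343 FPKM in IOP, 35.9 to 4302 FPKM in ctrl-GCV and 1652 to 3164 FPKM in IOP-GCV retinas. None of 6 pigment epithelium markers was called (summed 27.4 to 278 FPKM, the most abundant being Ttr at -0.61 and Rrh at -0.44). None of 6 measured blood genes was called (summed 25.6 to 523.7 FPKM, with Hbb-b1 at -0.29 and Hba-a1 at -0.54).

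**Figure D4:**
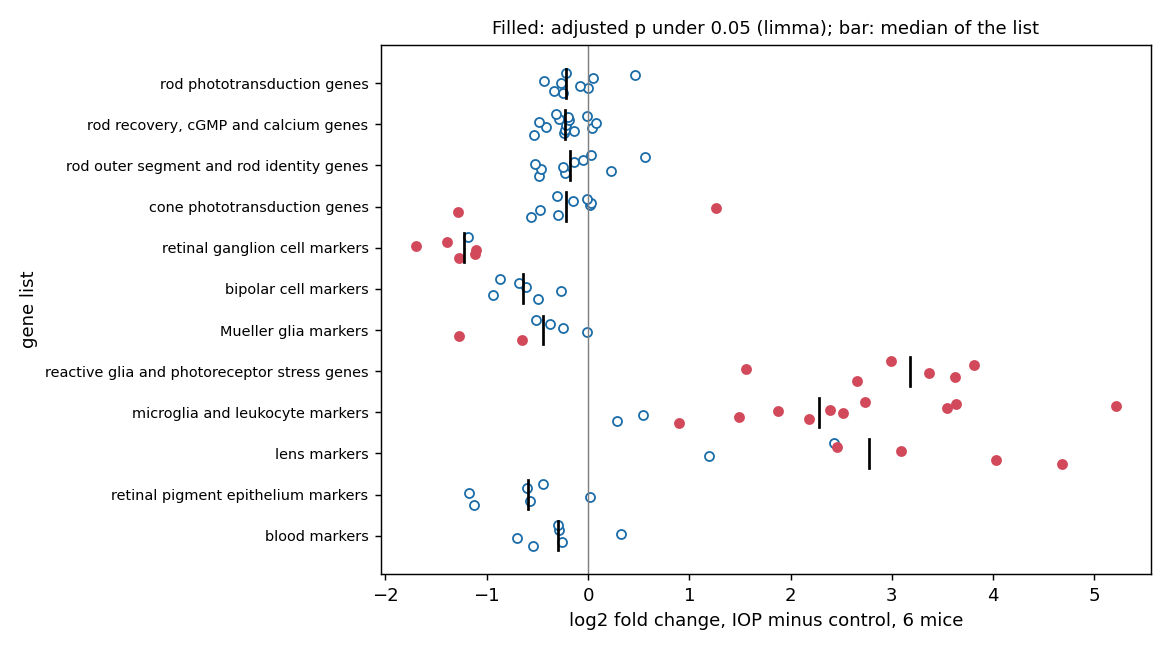
Log2 fold change of IOP against control retinas over 6 mice, by limma with the variance trend, for each gene of the rod list and 11 other lists. Filled points passed an adjusted p of 0.05, and bars mark medians, which lie at -0.22 for the rod phototransduction genes, -1.23 for ganglion cell markers and 3.18 for reactive glia and stress genes.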

How the data were processed

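RNA from 12 retinas (4 groups of 3) was sequenced from TruSeq stranded mRNA libraries. The study's methods describe HOMER counts of read pairs over RefSeq exons, and the submitters' processing notes name TopHat2, Bowtie2, Cufflinks, Cuffdiff and the build mm10 (GRCm38). The table deposited by the authors holds FPKM values. Its unit is not stated and was inferred, since low values times transcript length were multiples of 1 number per library. From 81.7% to 84.5% of such values lay within 0.2 of a whole number, for genes with 1 transcript of at least 1500 bases, less 170 bases, and gave 4010000 to 9060000 fragments per library. No further scaling between libraries is described. Median-ratio factors of the deposited values lay between -0.0019 and 0.0197 log2 units, so median-ratio scaling, tried as an alternative, could change little.

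Values were analysed as log2(FPKM + 1), with fold changes on that scale, for the 18509 rows above 0 in at least 1 library, with limma 3.58.1 in R 4.3.3 (4 group means, variance trend, two-sided, Benjamini-Hochberg at 0.05). The contrasts share libraries. Because the trend overstated the spread at the level of these genes, the fit without it, a listed alternative, was given beside it and extended after the data had been seen, as were sign-flip tests within mice. The fit without the trend in turn expected less spread than any member showed. Retinas with the same number come from 1 animal. Correlations of their deviations from group means, over 12910 genes, were 0.207, 0.388, 0.1, -0.117, 0.132 and 0.166 in mice 3, 4, 6, 1, 2 and 5. Different mice are biological replicates. Of each further list, up to 3 called genes with the smallest adjusted p are named, otherwise the 2 most abundant. The members and lists were chosen with earlier results of these data known. As alternatives, scaling, array weights, a pseudocount of 0.1, a filter of 1 FPKM in 3 libraries, other thresholds, the mouse as a block, only the groups compared, and leaving out each library were tried. Calling was tested on simulated data. Results on withheld items are not reported here. GC content came from GENCODE vM21 transcripts, missing for 925 genes. Figures were drawn with matplotlib 3.10.9, and tables read with pandas 2.3.3 in Python 3.11.15.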

Additional observations from a re-analysis of the deposited data

How the results depend on the processing

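Of 1152 fold changes of single members refitted under alternatives, 1151 kept their call, 0 reversed, and 1, Sag over the 6 mice without the variance trend, became called. Apart from the fit without the trend, these alternatives kept it, with an expected spread of 0.35 to 3.85 log2 units for the members. A call was therefore hard to reach, and the count of kept calls says little about stability. Causes were not tested. Cnga1, the lowest member, rested on an estimated 8314 or more fragments per library.

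Counts of all genes for IOP without GCV (306), IOP with GCV (334) and IOP over 6 mice (2258) became 75, 144 and 1351 with the mouse as a replicate block, 607, 780 and 4131 at an adjusted p under 0.1, and 3501, 3547 and 5611 at an unadjusted p under 0.05. For IOP without and with GCV they were 464 and 535 with a pseudocount of 0.1, 180 and 1721 with array weights, and 185 and 7 with only the groups compared. For the GCV difference in IOP effects, GCV in IOP retinas and GCV in control retinas, counts of 0 became 358, 774 and 295 at an unadjusted p. GCV in control retinas gave 4 with only the groups compared and 1 with a pseudocount of 0.1. With 1 library left out, counts ran from 20 to 2432 for IOP without GCV, 62 to 942 with GCV and 788 to 4499 over 6 mice, each highest without the IOP retina of mouse 4. They ran from 0 to 2 for the GCV difference in IOP effects, and from 0 to 4 for GCV in IOP retinas and for GCV in control retinas.

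Without the trend, the 1 member called over 6 mice (Sag) became 0 with the replicate block, 2 with quantile normalization (Sag and Pde6b), 4 at an unadjusted p, and 0 to 1 with 1 library left out. For IOP without and with GCV the counts were 3 and 1 at an unadjusted p, and 0 to 1 with 1 library left out, the call being Sag without the IOP retina of mouse 4. The block changed no other member call.

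Over 6 mice, called rod outer segment genes were 1 with a pseudocount of 0.1, with median-ratio scaling or without the trend (Abca4 there), 3 with the filter, quantile normalization, an adjusted p under 0.1 or an unadjusted p, and 0 to 2 with 1 library left out. Rod recovery genes were 1 with the filter or at an adjusted p under 0.1, 2 with quantile normalization, array weights or an unadjusted p, and 0 to 2 with 1 library left out. At an unadjusted p, cone genes were 4, bipolar markers 3 and pigment epithelium markers 1. Bipolar markers were 2 with the filter and 3 at an adjusted p under 0.1. The replicate block left 1 ganglion cell and 1 Mueller glia marker. With 1 library left out, counts were 0 to 6 for ganglion cell, 0 to 3 for Mueller glia, 0 to 3 for bipolar, 0 to 5 for lens and 0 to 2 for pigment epithelium markers.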
